A study of Saccharomyces cerevisiae with 4 samples.

Results

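The mitotic exit network is the signalling pathway that ends mitosis in budding yeast, and 10 of its genes were followed here on arrays that compared RNA bound to the RNA-binding protein Whi3 with total RNA. The 10 genes were taken by name from the probe annotation: TEM1, LTE1, BFA1, BUB2, CDC15, DBF2, DBF20, MOB1, CDC5 and CDC14. All 10 had a coding probe among the 5738 gene probes of the arrays, and DBF2 and DBF20 also had a separate probe for the 3′ UTR. Of the 10, 9 gave a value on every array, as did 4295 genes in all, and BFA1 gave a value on 3 arrays. The genes were listed by their place in the pathway, with earlier results of these data known.

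All strains were haploid Saccharomyces cerevisiae of the W303 background, given as W303a (MATa) in the study's methods, with mutations in leu2, trp1, ura3, ade2, his3 and can1. In 1 group Whi3 carried a TAP tag (WHI3-TAP), expressed from its own promoter. In the other group the same tagged protein lacked its RNA recognition motif (whi3-dRRM-TAP), and no untagged strain was used here. Cells of both groups were grown in rich medium to log phase, Whi3 was pulled down on IgG beads, and cDNA primed with oligo-dT was made from the bound RNA (Cy3) and from total RNA of the same strain (Cy5). Each group had 2 arrays, 1 per biological replicate, and arrays with the same replicate number were treated as 1 experiment. The probes were double-stranded, so overlapping transcripts on the opposite strand cannot be told apart from the named gene. In asynchronous cultures such as these, a change in the share of cells in mitosis and a change in RNA per cell cannot be told apart either.

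The network works as a GTPase cascade on the spindle pole bodies. The GTPase Tem1 is held inactive by the Bfa1-Bub2 GTPase-activating complex until the spindle enters the bud, where Lte1 favours its active form. Active Tem1 recruits the kinase Cdc15, which activates the kinases Dbf2 and Dbf20 with their co-activator Mob1, and these keep the phosphatase Cdc14 out of the nucleolus, so that mitotic cyclins are destroyed and cytokinesis begins. Whi3 is best known for binding the mRNA of the G1 cyclin Cln3.

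The arrays were not of equal quality. Leaving out spots marked as poor at scanning kept 79.8% and 86.5% of yeast spots on Whi3-TAP arrays 1 and 2, and 46.4% and 76.7% on Whi3-dRRM-TAP arrays 1 and 2. Of the 88 spots of the 10 coding probes, 84.1%, 88.6%, 36.4% and 78.4% were kept in the same order. TEM1, BUB2, DBF2, DBF20, MOB1 and CDC5 were spotted 12 times each, and LTE1, BFA1, CDC15 and CDC14 4 times each. On Whi3-dRRM-TAP array 1, LTE1, BUB2 and CDC15 kept 1 spot each and BFA1 kept none. Only 6 of the 10 genes had at least 2 kept spots on every array. No spot of these probes was saturated.

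The measure compared between the groups was the net log ratio, obtained within each experiment by subtracting the log2 ratio (bound over total RNA) of Whi3-dRRM-TAP from that of Whi3-TAP. Fits that left out 1 array did not pair the arrays by experiment. Their values are the mean of Whi3-TAP minus the mean of Whi3-dRRM-TAP over the arrays that remained. None of the 9 tested genes differed between the groups by the limma test with Benjamini-Hochberg adjustment over 4295 genes (0 of 9, against 0% of all genes tested). The adjusted p of the 9 ran from 0.192 to 0.947. At an unadjusted limma p under 0.05 the count was also 0 of 9, against 29.3% of all genes. Without the experiment as a block, the same test called 3.07% of all genes and none of the 9. None of the 9 reached the limit that the study's methods used for enrichment, a mean net log ratio a fixed number of SDs above the mean of all genes (here 1.05, reached by 5.01% of genes), and none lay below the lower limit of -1.21 (5.05% of genes).

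The median net log ratio of the 9 genes was 0.07, with a range of -0.60 to 0.70, beside a median of -0.09 over all genes tested. It was -0.27 in experiment 1 and 0.19 in experiment 2. TEM1, BUB2 and MOB1 were positive in both experiments (3 of 9, against 32.4% of all genes), and LTE1, DBF20 and CDC5 were negative in both (3 of 9, against 41.2%). CDC15, DBF2 and CDC14 changed sign between the experiments. The Whi3-TAP ratios lay wholly above the Whi3-dRRM-TAP ratios for 3 of the 9 (26.6% of all genes) and wholly below for 1 (34.2% of all genes).

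**Figure D1:**
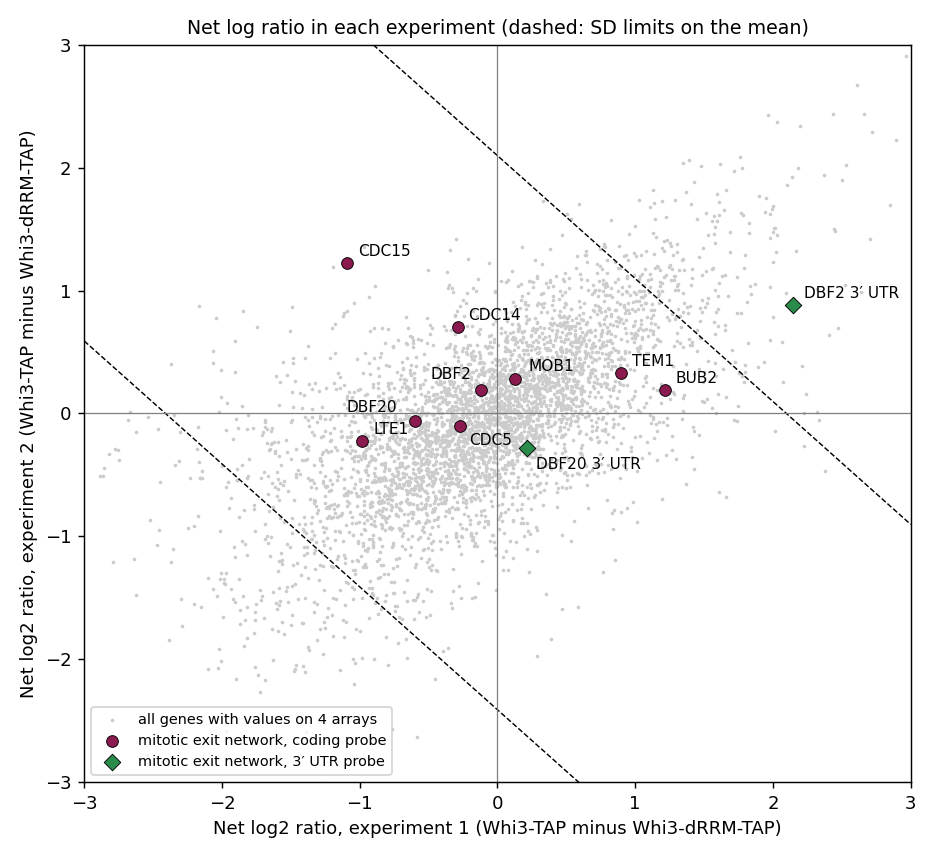
Net log2 ratio of each gene in experiment 1 (x axis) and experiment 2 (y axis). Grey points are the genes with a value on all 4 arrays (17 lie outside the axes), circles the coding probes and diamonds the 3′ UTR probes of the network; dashed lines mark where the mean of both experiments reaches 1.05 or -1.21. All 9 coding probes lie between the dashed lines, and the DBF2 3′ UTR probe lies beyond the upper one. BFA1 had no value in experiment 1 and is not drawn.

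TEM1 (YML064C, chromosome 13), the GTPase at the head of the cascade, was among the genes of the network with the highest ratios in Whi3-TAP. Its log2 ratios (bound RNA over total RNA) were 0.72 and 0.53 on the Whi3-TAP arrays and -0.18 and 0.20 on the Whi3-dRRM-TAP arrays. Both Whi3-TAP values were above both Whi3-dRRM-TAP values, and the Whi3-TAP mean of 0.62 ± 0.13 (SD, n = 2) was higher than that of 86.3% of genes. This gave a net log ratio of 0.90 in experiment 1 and 0.33 in experiment 2, a mean of 0.61 ± 0.40 (SD, n = 2), with an adjusted limma p of 0.192. The lower value of Whi3-dRRM-TAP, on array 1, rested on 2 of 12 spots, while the other arrays kept 10 or 12. After normalization between arrays, the mean immunoprecipitate level of TEM1 differed by 0.12 and its total RNA by -0.49 (Whi3-TAP minus Whi3-dRRM-TAP). Total RNA of TEM1 was within background on every array. Without Whi3-dRRM-TAP array 2, the Whi3-TAP mean of TEM1 minus the lone control array, with 2 kept spots, was 0.81. Over the alternatives with every array in the fit, its adjusted limma p ran from 0.069 to 0.703.

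Of the regulators of Tem1, neither BUB2 nor LTE1 passed the test and BFA1 could not be tested. BUB2 (YMR055C, chromosome 13), a subunit of the GTPase-activating complex, had log2 ratios of 0.25 and 0.32 on the Whi3-TAP arrays and -0.97 and 0.13 on the Whi3-dRRM-TAP arrays. The Whi3-TAP values were close to each other and above both Whi3-dRRM-TAP values, of which the low one came from 1 spot. Its net log ratio was 1.21 in experiment 1 and 0.19 in experiment 2, with a mean of 0.70 ± 0.73 (SD, n = 2) and an adjusted limma p of 0.235. Without Whi3-dRRM-TAP array 2, which leaves that 1 spot as the whole control, the difference between the groups was 1.25. Without Whi3-dRRM-TAP array 1 it was 0.15. Over the alternatives with every array in the fit, the adjusted limma p of BUB2 ran from 0.152 to 0.669. After normalization between arrays, the mean immunoprecipitate level of BUB2 differed by -0.008 and its total RNA by -0.71 (Whi3-TAP minus Whi3-dRRM-TAP). Total RNA of BUB2 was within background on every array.

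BFA1 (YJR053W, chromosome 10), the partner of Bub2, had log2 ratios of -0.21 and 0.06 on the Whi3-TAP arrays and 0.27 on Whi3-dRRM-TAP array 2. Both Whi3-TAP values were below the Whi3-dRRM-TAP value, opposite in order to those of BUB2. The net log ratio could be formed in experiment 2 only, where it was -0.21. With marked spots kept, BFA1 had a value on every array and a mean net log ratio of -0.35 with an adjusted limma p of 0.282. With marked spots left out and without Whi3-dRRM-TAP array 1, the unpaired difference between the groups was also -0.35.

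LTE1 (YAL024C, chromosome 1), which favours active Tem1 in the bud, had log2 ratios of 0.16 and -0.36 on the Whi3-TAP arrays and 1.14 and -0.14 on the Whi3-dRRM-TAP arrays. The groups overlapped, and the value of 1.14 came from 1 of 4 spots. In net log ratio it had -0.98 and -0.22, with a mean of -0.60 ± 0.54 (SD, n = 2) and an adjusted limma p of 0.232, the lowest mean of the 9 genes. With arrays not paired, the difference between the groups was -1.24 without Whi3-dRRM-TAP array 2 and 0.04 without Whi3-dRRM-TAP array 1.

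**Figure D2:**
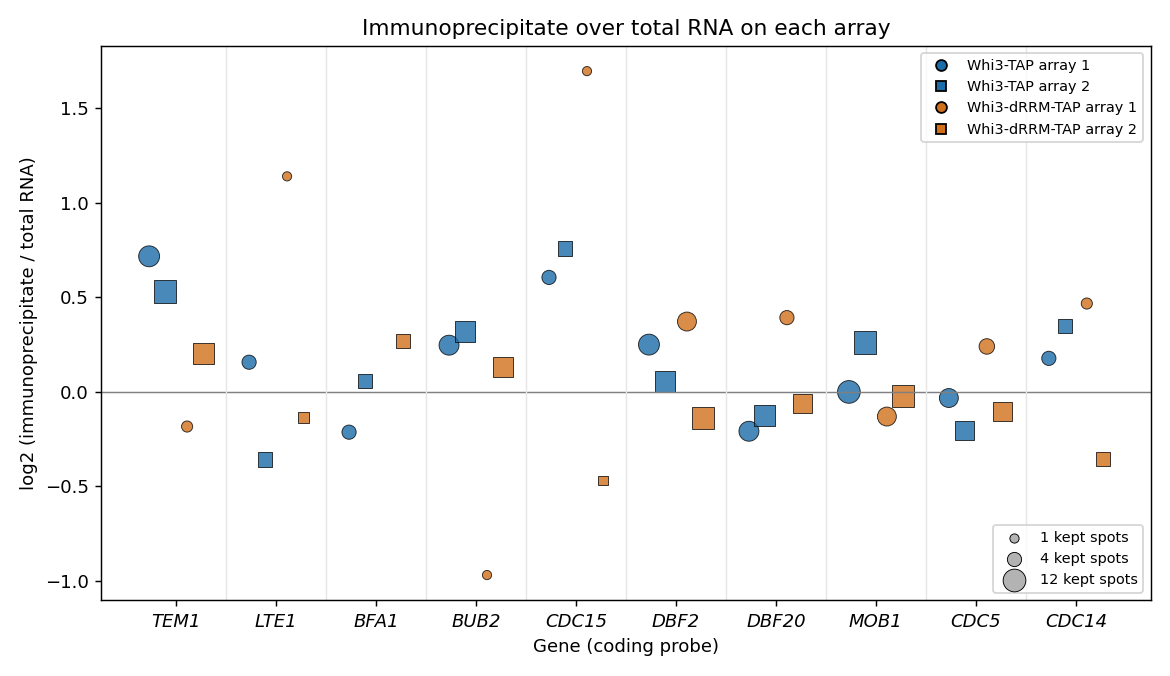
Log2 ratio of immunoprecipitate to total RNA of the 10 coding probes on each array. Colour gives the group, circles and squares the experiment, and the size of a symbol the number of spots kept. The Whi3-dRRM-TAP values farthest from 0 (CDC15 at 1.69, LTE1 at 1.14 and BUB2 at -0.97) are small circles of 1 spot each, and for 8 of 9 genes the Whi3-TAP values lie closer together than the control values (MOB1 is the exception).

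CDC15 (YAR019C, chromosome 1), the kinase that Tem1 recruits, had log2 ratios of 0.60 and 0.76 on the Whi3-TAP arrays, with a mean of 0.68 ± 0.11 (SD, n = 2), higher than 88.3% of genes. On the Whi3-dRRM-TAP arrays it had 1.69 and -0.47, each from 1 of 4 spots, with a mean of 0.61 ± 1.53 (SD, n = 2). The control values lay on both sides of the Whi3-TAP values. CDC15 therefore had a net log ratio of -1.09 in experiment 1 and 1.23 in experiment 2, with a mean of 0.07 ± 1.64 (SD, n = 2) and an adjusted limma p of 0.947. Leaving out 1 control array turned it either way: it was 1.15 without Whi3-dRRM-TAP array 1 and -1.01 without Whi3-dRRM-TAP array 2. Over the alternatives with every array in the fit, the adjusted limma p of CDC15 ran from 0.349 to 0.954.

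The coding probes of the Dbf2 kinase module were among the better measured of the network, with 4 to 8 spots kept even on Whi3-dRRM-TAP array 1. DBF2 (YGR092W, chromosome 7), the kinase that acts with Mob1, had log2 ratios of 0.25 and 0.05 on the Whi3-TAP arrays and 0.37 and -0.14 on the Whi3-dRRM-TAP arrays. Within each experiment the groups lay close together, and both were higher in experiment 1. DBF2 had a net log ratio of -0.12 and 0.19, with a mean of 0.04 ± 0.22 (SD, n = 2), a limma standard error of 0.22 and an adjusted p of 0.927.

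DBF20 (YPR111W, chromosome 16), the paralog of DBF2, had log2 ratios of -0.21 and -0.12 on the Whi3-TAP arrays and 0.39 and -0.06 on the Whi3-dRRM-TAP arrays. Both Whi3-TAP values were below both control values, the only gene of the 9 in that order. The net log ratio was -0.60 and -0.06, with a mean of -0.33 ± 0.38 (SD, n = 2) and an adjusted limma p of 0.405. The mean was -0.10 without Whi3-dRRM-TAP array 1 and -0.046 with loess fitted within each print-tip group. MOB1 (YIL106W, chromosome 9), the co-activator of both kinases, had log2 ratios of -0.0009 and 0.26 on the Whi3-TAP arrays and -0.13 and -0.02 on the Whi3-dRRM-TAP arrays. The groups did not overlap, with Whi3-TAP higher. Its net log ratio was 0.13 and 0.28, with a mean of 0.21 ± 0.11 (SD, n = 2) and an adjusted limma p of 0.527. After normalization between arrays, the mean immunoprecipitate level of MOB1 differed by -0.22 and its total RNA by -0.43 (Whi3-TAP minus Whi3-dRRM-TAP).

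The 3′ UTR probe of DBF2 gave a different picture from its coding probe. Its log2 ratios were 0.82 and 0.72 on the Whi3-TAP arrays, from 11 and 12 spots, and -1.33 and -0.17 on the Whi3-dRRM-TAP arrays, from 1 and 10 spots. Both Whi3-TAP values lay above both control values, as for 23.7% of the 131 3′ UTR probes with a value on every array. For this probe the net log ratio was 2.15 in experiment 1 and 0.88 in experiment 2, with a mean of 1.51 ± 0.89 (SD, n = 2), past the upper limit of 1.05 that 10.7% of the 131 UTR probes reached. In a limma fit of gene and 3′ UTR probes together (4426 probes, of which 0% were called), its p was 0.0136 and its adjusted p 0.101. Its immunoprecipitate signal was above background on both Whi3-TAP arrays and on no Whi3-dRRM-TAP array. After normalization between arrays, the log2 immunoprecipitate level was 10.17 on both Whi3-TAP arrays and 9.38 and 9.45 on the control arrays. The mean difference was 0.76, from control levels within background, so only a lower bound on the fold is given. With control levels raised to the lowest level of any gene above background on the same array, the fold was at least 1.09. Total RNA of this probe was within background on every array, with a mean difference of -0.75 (Whi3-TAP minus Whi3-dRRM-TAP). The net log ratio of this probe therefore also rests on total RNA that was not measured above background.

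Between the DBF2 probes themselves, the UTR ratio exceeded the coding ratio by 0.57 and 0.66 on the log2 scale on the Whi3-TAP arrays, a mean of 0.62 ± 0.07 (SD, n = 2). On the Whi3-dRRM-TAP arrays it was below the coding ratio by -1.70 (1 UTR spot) and -0.03. Thus the probes parted on both Whi3-TAP arrays, and on the control array with 10 UTR spots they did not differ beyond the spread of the spots. Among the 96 genes with both kinds of probe on every array, the net log ratio of the UTR probe minus that of the coding probe was highest for DBF2, at 1.48 ± 1.11 (SD, n = 2), where the median gene had -0.13 and the middle 80% lay between -0.75 and 0.75. This difference was 2.27 in experiment 1, which rests on the 1 control UTR spot. In experiment 2 it was 0.69, within that middle range of means over both experiments. In Whi3-TAP alone, the gap of 0.62 was the 20th highest of 96. With marked spots kept, the UTR probe had log2 ratios of 0.81 and 0.72 in Whi3-TAP and -0.27 and -0.13 in Whi3-dRRM-TAP, and a mean net log ratio of 0.96, past the upper limit of 0.90 that holds with that setting. Without Whi3-dRRM-TAP array 1 it was 0.94. In experiment 2 alone, where both groups kept 10 or more spots, the net log ratio was 0.88 for the UTR probe and 0.19 for the coding probe.

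**Figure D3:**
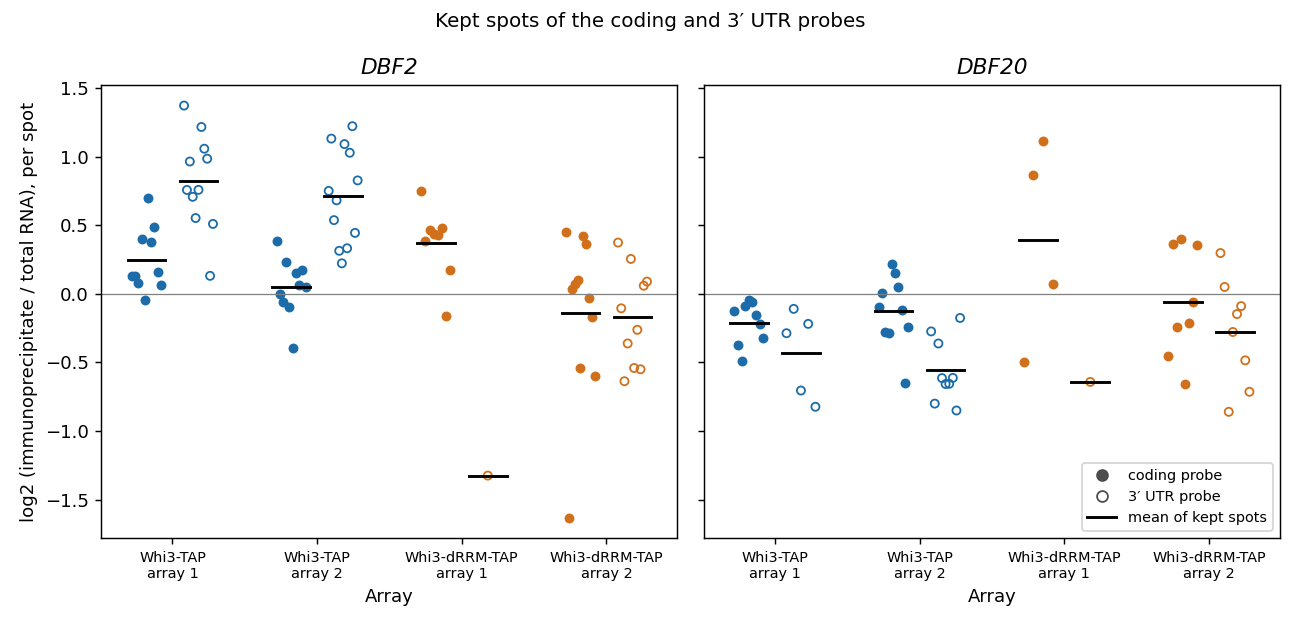
Log2 ratio of immunoprecipitate to total RNA of each kept spot of the coding probe (filled) and the 3′ UTR probe (open) of DBF2 and DBF20 on each array. Bars are means of the kept spots, and spots of 1 array are repeat measurements of 1 sample. The DBF2 UTR probe lies above its coding probe on both Whi3-TAP arrays (means 0.82 and 0.72 against 0.25 and 0.05), and the DBF20 UTR probe lies below its coding probe on all 4 arrays.

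The 3′ UTR probe of DBF20 did not share that pattern. Its log2 ratios were -0.43 and -0.56 on the Whi3-TAP arrays and -0.64 and -0.28 on the Whi3-dRRM-TAP arrays. The groups overlapped, and the immunoprecipitate signal was above background on Whi3-TAP array 2 only. Its net log ratio was 0.21 and -0.28, with a mean of -0.03 ± 0.35 (SD, n = 2).

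Neither CDC5 nor CDC14 passed the test. CDC5 (YMR001C, chromosome 13), the Polo kinase that inactivates the Bfa1-Bub2 complex, had log2 ratios of -0.03 and -0.20 on the Whi3-TAP arrays and 0.24 and -0.10 on the Whi3-dRRM-TAP arrays. Its groups overlapped, with a net log ratio of -0.27 and -0.10, a mean of -0.19 ± 0.12 (SD, n = 2) and an adjusted limma p of 0.574. The mean was -0.013 without Whi3-dRRM-TAP array 1 and -0.36 without Whi3-dRRM-TAP array 2. CDC14 (YFR028C, chromosome 6), the phosphatase that the network releases, had log2 ratios of 0.18 and 0.35 on the Whi3-TAP arrays and 0.47 and -0.35 on the Whi3-dRRM-TAP arrays. The control values lay on both sides of the Whi3-TAP values, as they did for CDC15. Its net log ratio was -0.29 and 0.70, with a mean of 0.21 ± 0.70 (SD, n = 2) and an adjusted limma p of 0.688. The mean was 0.62 without Whi3-dRRM-TAP array 1 and -0.20 without Whi3-dRRM-TAP array 2.

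The repeat arrays of Whi3-TAP were closer to each other than those of the control. The SD of the log2 ratio over the 2 arrays ran from 0.05 to 0.36 among the 9 genes in Whi3-TAP and from 0.08 to 1.53 in Whi3-dRRM-TAP, and it was larger in Whi3-dRRM-TAP for 8 of the 9. The number of kept spots moved with this, and its part in the spread was not tested. Ordered by their mean log2 ratio in Whi3-TAP, CDC15 and TEM1 (0.68 and 0.62) came first and did not differ beyond their spread, followed by BUB2, CDC14, DBF2 and MOB1 (0.28 to 0.13), and by BFA1, LTE1, CDC5 and DBF20 (-0.08 to -0.17). Bound RNA was always labelled with Cy3, so any dye effect of a probe remains in this order, and it is given with no test. Total RNA of CDC15, TEM1, BUB2, CDC14, BFA1, LTE1 and DBF20 was within background on both Whi3-TAP arrays. Their places in this order therefore rest on a denominator that was not measured above background.

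Detection in the immunoprecipitate differed between the groups. A probe was called above background where its mean foreground minus background exceeded 2 SDs of the local background. All 10 coding probes were above background on both Whi3-TAP arrays, where 89.0% and 99.3% of the genes tested were. On Whi3-dRRM-TAP array 1 only CDC15 was above (1 of the 9 with a value, against 16.6% of genes), with a net intensity of 1563 against a limit of 1550. On Whi3-dRRM-TAP array 2, TEM1 and MOB1 were above (2 of 10, against 65.5% of genes), and TEM1 only just, with 1403.3 against a limit of 1403.2. So 7 of the 10 genes had a control signal above background on neither array (BFA1 was measured on control array 2 alone), and their net log ratios rest on control signals within the background noise. No fold is given for these 7 genes, since their control level was not measured above background.

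**Figure D4:**
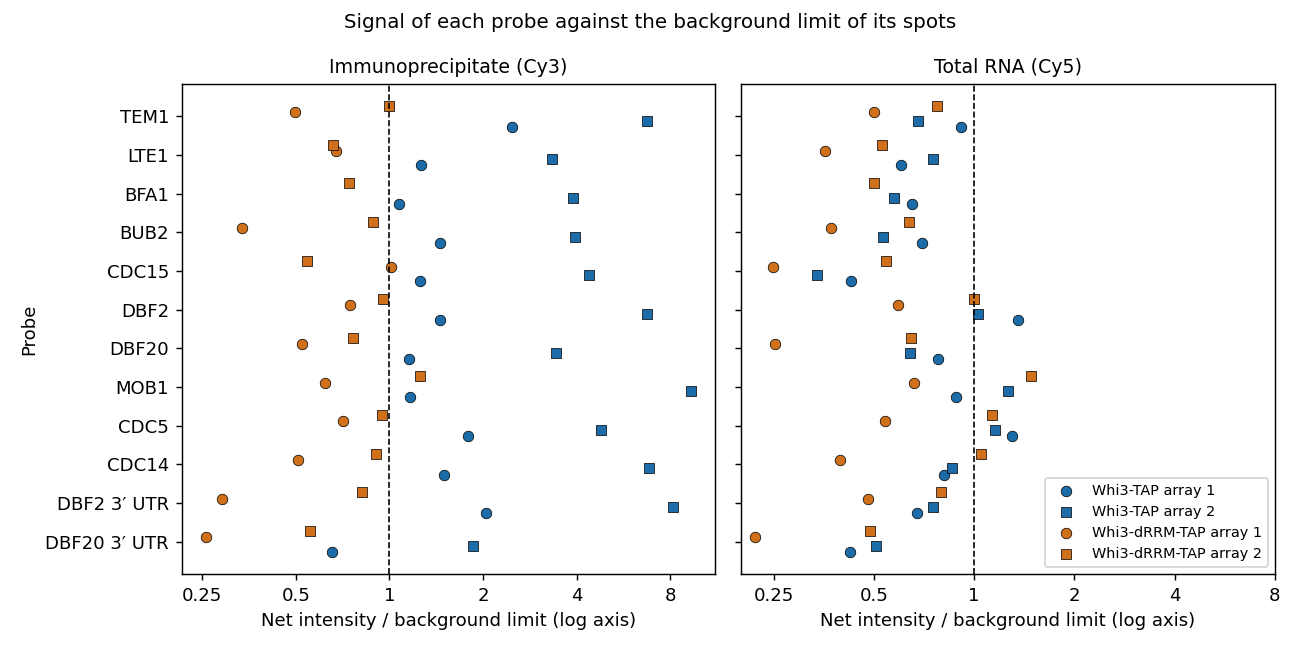
Net intensity of each probe divided by its background limit (2 SDs of the local background), on a log axis, for immunoprecipitate (left panel) and total RNA (right panel). Points right of the dashed line are above background. In the immunoprecipitate all 10 coding probes lie right of the line on both Whi3-TAP arrays, and 1 (array 1) and 2 (array 2) do so in Whi3-dRRM-TAP; in total RNA 2, 3, 0 and 4 do so on Whi3-TAP arrays 1 and 2 and Whi3-dRRM-TAP arrays 1 and 2.

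The genes of the network gave low signals in total RNA. Of the 10, DBF2, MOB1, CDC5 and CDC14 were above background on at least 1 array, and none on all 4. DBF2 and CDC5 were above on both Whi3-TAP arrays and on Whi3-dRRM-TAP array 2, MOB1 on the arrays of experiment 2, and CDC14 on Whi3-dRRM-TAP array 2 alone. TEM1, LTE1, BFA1, BUB2, CDC15 and DBF20 were above background on no array.

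No gene of the network differed in total RNA by the limma test (0 of 9, against 0% of all genes tested, smallest adjusted p over all genes 0.297). The median difference, Whi3-TAP minus Whi3-dRRM-TAP, was -0.43 on the log2 scale among the 9 and -0.15 over all genes. At an unadjusted limma p under 0.05, 3 of the 9 differed (14.9% of all genes), 0 higher (2.1% of all genes) and 3 lower in Whi3-TAP (12.9%): CDC15 by a difference of -0.70 ± 0.15, BUB2 by -0.71 ± 0.44 and CDC14 by -0.44 ± 0.11 (SD, n = 2), with adjusted p of 0.297, 0.303 and 0.333. The normalized log2 intensity of CDC15 was 8.92 and 8.45 in Whi3-TAP and 9.52 and 9.26 in Whi3-dRRM-TAP, with no overlap. That of CDC14 was 9.63 and 9.63 in Whi3-TAP and 10.15 and 10.00 in Whi3-dRRM-TAP, also with no overlap. For 4 of the 9 the Whi3-TAP values lay wholly below the control values (26.3% of all genes) and for 0 wholly above (7.73%). CDC15 and BUB2 were within background on all 4 arrays, and the part of the spots left out on Whi3-dRRM-TAP array 1 in these differences was not tested. With marked spots kept, the difference of CDC15 was 0.34, that of BUB2 -0.17 and that of CDC14 -0.38.

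**Figure D5:**
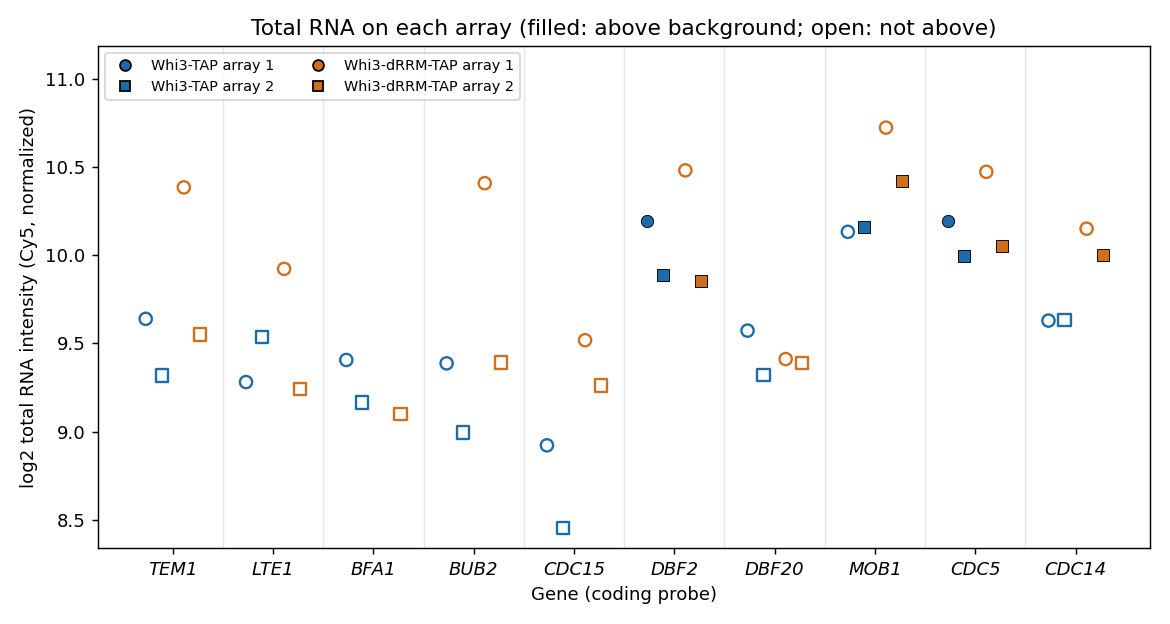
Normalized log2 intensity of total RNA (Cy5) of the 10 coding probes on each array, with filled symbols above background and open symbols not above. The control values of array 1 are the highest of each gene except DBF20 (BFA1 had no value there), and every one of them is an open symbol.

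The Cdc14 early release (FEAR) genes and the nucleolar anchor of Cdc14 had a median net log ratio of -0.19 over the 9 of 10 with values on all arrays, with 0 called after adjustment, 2 higher at an unadjusted limma p under 0.05 (12.8% of all genes) and 0 lower (16.5%). SPO12, a regulator of early Cdc14 release, had the highest mean (0.69 ± 0.22, adjusted limma p of 0.140) and was 1 of those 2. CDC55, a regulatory subunit of protein phosphatase 2A, came next (0.68 ± 0.56, SD, n = 2). It was not 1 of them (unadjusted limma p of 0.0688). FOB1, a nucleolar replication fork block protein, and SLK19, a kinetochore and spindle protein, had the lowest means (-0.94 ± 0.99 and -0.41 ± 0.11, SD, n = 2). FOB1 kept only 1 spot on at least 1 array.

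The regulators at the spindle pole and cortex had a median of -0.23 over 8 of 11 genes, with 0 called after adjustment, 1 higher and 1 lower at the unadjusted limma p (12.8% and 16.5% of all genes). AMN1, which binds Tem1 in daughter cells, was the higher one (0.79 ± 0.35, SD, n = 2) and was positive in both experiments. CNM67, a spindle pole body protein, was the lower one (-0.86 ± 0.32, SD, n = 2). RTS1, another subunit of protein phosphatase 2A, had 0.11 ± 0.07 and STE20, a p21-activated kinase, had -0.49 ± 0.09 (SD, n = 2).

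The RAM network controls daughter-specific transcription and contains a kinase and co-activator of the same families as Dbf2 and Mob1. Its median net log ratio was 0.33 over 5 of 6 genes, with 0 called after adjustment, 1 higher and 0 lower at the unadjusted limma p (12.8% and 16.5% of all genes), and 4 of the 5 positive in both experiments (32.4% of all genes). MOB2, the co-activator related to Mob1, had log2 ratios of 0.41 and 0.73 on the Whi3-TAP arrays and -0.17 and -0.55 on the Whi3-dRRM-TAP arrays, with a mean net log ratio of 0.93 ± 0.50 (SD, n = 2) and an adjusted limma p of 0.122. HYM1, a Cbk1 pathway scaffold, had 1.16 ± 1.28, from 2.07 in experiment 1 and 0.25 in experiment 2, and was the only RAM gene past the upper limit. MOB2 and HYM1 each kept only 1 spot on at least 1 array. Neither had an immunoprecipitate signal above background on a control array, and total RNA of HYM1 was within background on every array. SOG2 had 0.16 ± 0.21 and TAO3 had -0.33 ± 0.02 (SD, n = 2).

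Among the effectors that act when the network fires, 11 of 13 had a probe and all 11 had values, with a median of 0.24, 0 called after adjustment, and 1 higher and 1 lower at the unadjusted limma p (12.8% and 16.5% of all genes). The 2 named by that test act in cytokinesis. CYK3, a protein of the cytokinetic ring, had log2 ratios of 0.96 and 1.04 on the Whi3-TAP arrays and -0.02 and 0.13 on the control arrays, with a net log ratio of 0.95 ± 0.05 (SD, n = 2) and an adjusted limma p of 0.0876. MYO1, the myosin heavy chain of the ring, had -0.36 and -0.32 against 0.95 and 1.22, with a net log ratio of -1.43 ± 0.17 (SD, n = 2) and an adjusted limma p of 0.0706, past the lower limit of -1.21. Neither pair of groups overlapped. HOF1, an F-BAR protein of the ring, had a net log ratio of -0.34 ± 0.42 (SD, n = 2).

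For reference, CLN3, the known Whi3 mRNA, had log2 ratios of 1.84 and 1.70 on the Whi3-TAP arrays and 0.26 and 0.32 on the Whi3-dRRM-TAP arrays, from 10 spots on each array. Its mean net log ratio of 1.48 ± 0.14 (SD, n = 2) was 79th of 4295 with an adjusted limma p of 0.0686, so the arrays separated the groups for CLN3 in both experiments without reaching the threshold. The WHI3 probe differed by 0.20 ± 0.02 (SD, n = 2). Where this probe lies relative to the deleted part was not known here, so it checks nothing about the deletion. Of 7 genes specific to MATa cells, 5 were above background in total RNA on at least 1 array (MFA1 and ASG7 were not), and of 4 genes specific to MATalpha cells 0 were. Among these mating-type genes, the net log ratio was highest for STE2 and STE6 (1.39 and 0.44) and lowest for BAR1 and MFA1 (-1.09 and -0.31) in the MATa list. In the MATalpha list it was highest for MF(ALPHA)2 and SAG1 (-0.01 and -0.95) and lowest for MF(ALPHA)1 and STE3 (-1.33 and -1.01), and none of the 11 passed the limma test after adjustment. MFA1 and MF(ALPHA)1 kept only 1 spot on at least 1 array.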

How the data were processed

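RNA was measured on 4 homemade arrays of spotted DNA probes, 2 per group, each comparing an immunoprecipitate (Cy3) with total RNA of the same strain (Cy5). Per the file headers, the values of a spot are its foreground intensity, its local background intensity and the SD of that background, not subtracted. Saturation is deposited as the percent of pixels in a spot that were saturated. The deposited spot flag is a score that is negative for spots marked in GenePix. The deposited series matrix holds log2 ratios per probe, which the authors background-subtracted, loess normalized and averaged over spots. It was used as an alternative only, and set against the scanner values it ran as immunoprecipitate over total RNA (r of 0.757 to 0.952 by array), with array medians of 0.21 to 1.08, so it was not centred.

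Marked and control spots were left out. Mean foreground was corrected with median background by normexp (offset 50) and ratios by loess (span 0.3) within each array, in limma 3.58.1 (R 4.3.3, version 1.17.8 of data.table, jsonlite 2.0.0), and spots of a probe were averaged. Levels of a channel were also normalized between arrays (Aquantile). The groups were compared by limma's moderated test (lmFit, eBayes, 2-sided), the experiment serving as a block, with Benjamini-Hochberg adjustment over the 4295 genes with values on all 4 arrays and a threshold of 0.05. The 3′ UTR probes were kept apart, except in 1 further fit. The pairing comes from the methods, which subtract the control within each of 2 independent experiments. Deviations of same-numbered arrays from their group means correlated at Pearson r = 0.218 over genes. Scripts were tested on simulated data. Depth has no meaning for arrays, and with 2 samples per group their number limits the precision. Nothing in the labels beyond "biological replicate" says how the samples were separated, so p-values rest on the spread between these samples. That spread is in large part pooled over all genes (1 residual against 3.17 prior degrees of freedom in net log ratio).

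The members and the gene lists were chosen with earlier results of these data known. All 10 members were named, with CLN3 and, of each other list, the 2 highest and the 2 lowest mean net log ratios among genes with values on all 4 arrays. The values of 1 gene that this rule names are not reported here. For the probe annotation, the sources used here give no genome build, so chromosomes only are printed. Alternatives were other background corrections and normalizations, marked spots kept, no replicate block, dim genes left out, an intensity trend in the prior, the series matrix and leaving out each array. After seeing the data, 3 were added: at least 2 kept spots on every array, the series matrix centred by array, and the fit with 3′ UTR probes. Plots were made with Python 3.11.15, matplotlib 3.10.9, pandas 2.3.3 and numpy 2.4.6.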

Additional observations from a re-analysis of the deposited data

How the results depend on the processing

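The count of genes past the adjusted threshold in net log ratio, 0 in the test as described, depended on the setting. It was 674 with no background correction, 100 with median centring, 1051 with marked spots kept, 132 with no replicate block, 527 with an intensity trend in the prior, 462 with the series matrix, 798 with that matrix centred (chosen after seeing the data), 520 with at least 2 kept spots on every array (also chosen after seeing the data), and 0 to 1530 with 1 array left out (530 without Whi3-dRRM-TAP array 1, 1530 without Whi3-dRRM-TAP array 2). A fit that leaves out an array also has no replicate block, and it assumes that the lone array of a group varies like the others. In total RNA the count of 0 became 126 with no background correction, 316 with the intensity trend, and 0 to 200 with 1 array left out. The other settings left both counts at 0. The count past the upper limit stayed within 1.5 times the main one in all 15 alternatives. The cause of these changes was not tested.

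The median of the members, 0.07, was -0.57 with the series matrix, where the median over all genes was -0.48 against -0.09. It was -0.16 with median centring and 0.27 with marked spots kept, where the medians over all genes were -0.21 and -0.06. With 1 array left out it ran from -0.22 to 0.15. The replicate block changed no call of a member. Net log ratios that changed sign were those of CDC15 (-0.31), DBF2 (-0.16) and CDC14 (-0.055) with median centring, where the all-gene median was -0.21. They were that of DBF2 (-0.014) with marked spots kept, those of CDC15 (-0.63), DBF2 (-0.50), MOB1 (-0.19) and CDC14 (-0.37) with the series matrix, and that of CDC15 (-0.065) with it centred. With 1 array left out, DBF2 ran from -0.22 to 0.29, LTE1 from -1.24 to 0.035, CDC15 from -1.01 to 1.15 and CDC14 from -0.20 to 0.62. DBF20 passed the adjusted threshold with the series matrix (-1.25), as did 462 of 3477 genes, 400 of them lower. With that matrix centred it was -0.68 and did not pass (adjusted limma p of 0.097). In total RNA, signs changed for DBF20 (-0.068 with no background correction, -0.097 with print-tip loess) and, with marked spots kept, for LTE1 (0.13) and CDC15 (0.34). With 1 array left out, the total RNA difference ran from -0.081 to 0.17 for DBF20 and from -0.51 to 0.17 for LTE1. It ran from -0.44 to 0.19 for DBF2 and from -0.38 to 0.040 for CDC5. That of BUB2 was -1.22 without Whi3-dRRM-TAP array 2, which leaves a control of 1 kept spot with total RNA within background. The DBF2 3′ UTR probe kept its direction in the 9 alternatives run on it, from 0.85 to 2.09.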
